A study of Homo sapiens with 6 samples.

Results

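The genes of triglyceride synthesis, lipid droplets and lipolysis were examined in U251 cells, an established human glioblastoma line, with and without knockdown of the signalling adaptor TRAF2. The 33 genes were chosen by function, as symbols that belong to this pathway, with earlier results of these data known. All 33 were found among the 23002 genes with a value. They comprised 13 synthesis enzymes, 12 droplet proteins, 7 lipases and lipase regulators, and the fatty acid transporter CD36. Messenger RNA was measured by sequencing in 3 control samples (NC in the labels, sh-NC here) and 3 knockdown samples (KD in the labels, sh-TRAF2 here).

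Both groups were stable lines made with lentivirus and selected with puromycin. The sh-NC line carried a non-targeting short hairpin RNA (shRNA) and the sh-TRAF2 line a hairpin against TRAF2. The sources do not say whether a line was a pool or a single clone, nor which of the study's TRAF2 hairpins was sequenced. The labels of these samples name no TNF-α treatment. The study asked how TRAF2 bears on lipid metabolism in glioblastoma, and the comparison here asks which of the genes that make, store and break down triglyceride differed between the lines.

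Triglyceride is assembled in the endoplasmic reticulum, where glycerol phosphate acyltransferases, lysophosphatidic acid acyltransferases, lipins and diacylglycerol acyltransferases act in turn on a glycerol backbone. The product collects between the leaflets of the membrane and buds into the cytosol as a lipid droplet, a store coated with perilipins and other proteins. Lipases release the fatty acids again, beginning with the adipose triglyceride lipase encoded by PNPLA2, and glioma cells are known to keep such stores.

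Values are FPKM, the fragments counted on a gene scaled to its length and to the depth of the sample, and per-sample values are given in the order of replicates 1, 2 and 3. The depth was 35284048 to 36823562 reads on genes in sh-NC and 33999558 to 34761466 in sh-TRAF2. TRAF2 itself measured 15.1, 18.4 and 15.3 FPKM in sh-NC and 3.26, 3.22 and 3.33 FPKM in sh-TRAF2, 79.9% lower (log2 fold change -2.27, standard error 0.079, limma adjusted p = 1.2e-06). Glioma markers were present, with VIM at 1208 to 1606, CD44 at 177 to 192 and SOX2 at 24.1 to 28.7 FPKM, whereas the glial markers GFAP (0.334 to 1.62 FPKM), OLIG2 (at most 0.113) and S100B (at most 0.0228) were low or near 0. Of the 5 glial and glioma markers tested, 3 were higher in sh-TRAF2 (VIM, NES and GFAP) and 0 lower. Over all genes tested the shares were 23.7% higher and 20.9% lower. The largest change was that of NES at 1.12 on the log2 scale. For GFAP the groups overlapped, with 0.56 FPKM in sh-TRAF2 replicate 1 and 0.67 FPKM in sh-NC replicate 3. Markers of adipocytes, hepatocytes, immune, endothelial and epithelial cells reached at most 0.629 FPKM, the value of CD14 in sh-NC replicate 2. Fewer cells of a kind and less RNA per cell cannot be told apart in such bulk samples.

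Of the 33 genes, 24 passed the filter of a mean of 0.5 FPKM and were tested. Of these, 4 were higher and 9 lower in sh-TRAF2 at a limma adjusted p under 0.05, and 11 did not pass. Among all 11870 genes tested, 23.7% were higher, 20.9% lower and 44.6% passed in either direction. For the pathway the shares were 16.7% higher and 37.5% lower. The median log2 fold change of the 24 genes was -0.13, with 17 below 0 and 7 above, against a median of 0.019 over all genes tested. All changes were small. No pathway gene moved by more than 1 on the log2 scale in either direction, as 0.986% of all tested genes did upwards and 0.733% downwards. In 5 of the 24 the test was passed with a log2 fold change of at least 0.4 in size, which 17% of all tested genes reached. All 3 samples of one group lay above all 3 of the other in 15 of the 24, and in 55.5% of all tested genes.

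**Figure D1:**
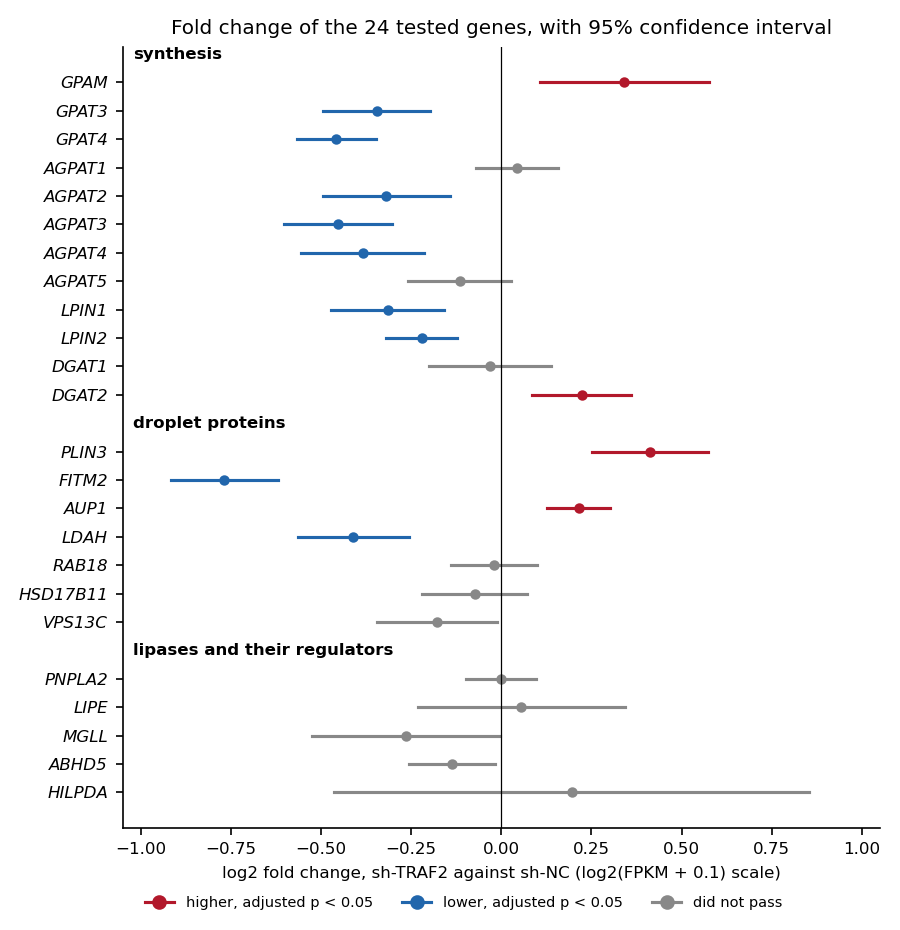
Log2 fold change of the 24 tested genes, sh-TRAF2 against sh-NC, on the log2(FPKM + 0.1) scale, with the 95% confidence interval from limma; red and blue mark genes higher and lower at an adjusted p under 0.05, grey those that did not pass. Most synthesis enzymes lie left of 0, FITM2 lies farthest left at -0.77, and the interval of HILPDA is the widest, from -0.46 to 0.85.

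Counts by role were as follows, with no test of a difference between roles. Over all genes tested, 23.7% were higher and 20.9% lower. Among the synthesis enzymes 2 were higher and 7 lower of 12 tested (16.7% and 58.3%), with a median log2 fold change of -0.27. With any of the 6 samples left out, 1 synthesis enzyme was higher, GPAM or DGAT2. For the droplet proteins the counts were 2 higher and 2 lower of 7 tested (28.6% each), with a median of -0.07. None of the 5 lipases and lipase regulators tested passed in limma (0 higher, 0 lower), nor with limma-voom on reads, while 2, MGLL and ABHD5, were lower at an unadjusted p under 0.05, and their median was -0.0016. Summed over all its genes, the level of synthesis enzymes was 131 ± 2.65 FPKM in sh-NC and 116 ± 1.04 FPKM in sh-TRAF2 (SD, n = 3 each), and the samples of the groups did not overlap. The droplet protein sum was 175 ± 6.11 FPKM in sh-NC and 194 ± 4.03 FPKM in sh-TRAF2, again without overlap. AUP1 alone made up most of that sum, with means of 106 FPKM in sh-NC and 123 FPKM in sh-TRAF2. The sum without AUP1 was not compared. The lipase and regulator sum was 75.6 ± 4.32 FPKM in sh-NC and 74.9 ± 2.72 FPKM in sh-TRAF2, and these overlapped.

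Glycerol phosphate acyltransferases attach a fatty acyl chain to glycerol 3-phosphate. Of the 3 enzymes listed here, GPAT3 and GPAT4 of the endoplasmic reticulum were lower in sh-TRAF2, while GPAM, a mitochondrial enzyme, was higher. GPAT4, the most abundant of them, measured 20.4, 21.4 and 21.3 FPKM in sh-NC and 14.7, 15.3 and 15.9 FPKM in sh-TRAF2. The highest knockdown value was under the lowest control value, a fall of 27.3% in the mean (log2 fold change -0.46, standard error 0.048, limma adjusted p = 0.00017). Its closest relative GPAT3 measured 6.57, 5.88 and 6.68 FPKM in sh-NC against 5.11, 4.93 and 4.92 FPKM in sh-TRAF2, also without overlap (log2 fold change -0.35, standard error 0.065, limma adjusted p = 0.0032).

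GPAM, which encodes a mitochondrial enzyme, measured 1.73, 1.55 and 1.92 FPKM in sh-NC and 2.25, 2.10 and 2.30 FPKM in sh-TRAF2. The groups did not overlap, and the log2 fold change was 0.34 (standard error 0.10, limma adjusted p = 0.026). This call was not stable. The limma adjusted p was 0.061 without sh-NC replicate 1, 0.067 without sh-NC replicate 2, 0.069 without sh-TRAF2 replicate 1 and 0.080 with sh-TRAF2 replicate 3 left out, with log2 fold changes of 0.34, 0.27, 0.33 and 0.32. As a share of the FPKM of the 3 enzymes listed, GPAM went from 5.94% ± 0.543 to 9.85% ± 0.409 (SD, n = 3 each). The sum of the 3 went from 29.1 ± 0.679 to 22.5 ± 0.583 FPKM.

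The lysophosphatidic acid acyltransferases add the next chain and yield phosphatidic acid, the branch point to both triglyceride and phospholipids. Of the 5 genes, 3 (60%) were lower in sh-TRAF2 and 0 higher, against 20.9% and 23.7% of all genes tested. AGPAT3 fell most, from 6.03, 6.34 and 6.43 FPKM in sh-NC to 4.36, 4.89 and 4.43 FPKM in sh-TRAF2, with no overlap (log2 fold change -0.45, standard error 0.065, limma adjusted p = 0.00086). AGPAT4, its nearest paralogue, fell by 0.38 on the log2 scale, with 3.56 to 3.94 FPKM in sh-NC and 2.67 to 2.95 FPKM in sh-TRAF2 (standard error 0.075, limma adjusted p = 0.0038). AGPAT2, whose loss in people is known as a cause of congenital lipodystrophy, ranged from 15.6 to 18.2 FPKM in sh-NC and from 12.2 to 14.3 FPKM in sh-TRAF2 (log2 fold change -0.32, standard error 0.077, limma adjusted p = 0.010).

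AGPAT1, the most abundant of the family, did not pass. It measured 26.1, 25.9 and 28.4 FPKM in sh-NC and 26.6, 28.1 and 28.2 FPKM in sh-TRAF2. The groups overlapped, and the log2 fold change was 0.04 with a 95% interval from -0.07 to 0.16. After quantile normalization its sign turned, at -0.0011. AGPAT5 did not pass either (log2 fold change -0.12, limma adjusted p = 0.17), although it did without sh-TRAF2 replicate 2, its highest knockdown sample (log2 fold change -0.18, limma adjusted p = 0.030). The share of AGPAT1 in the summed FPKM of the 5 genes was 39.5% ± 1.55 in sh-NC and 44.8% ± 0.666 in sh-TRAF2 (SD, n = 3 each), and the sum itself was 67.8 ± 2.37 and 61.6 ± 1.18 FPKM.

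Lipins remove the phosphate to give diacylglycerol. LPIN1 and LPIN2 were expressed at similar levels, and both were lower in sh-TRAF2. LPIN2, the more abundant, measured 12.7, 12.5 and 12.8 FPKM in sh-NC and 11.0, 10.9 and 10.7 FPKM in sh-TRAF2, a narrow spread within each group and no overlap (log2 fold change -0.22, standard error 0.043, limma adjusted p = 0.0039). LPIN1 ranged from 11.0 to 11.5 FPKM in sh-NC and from 8.14 to 9.69 FPKM in sh-TRAF2 (log2 fold change -0.31, standard error 0.069, limma adjusted p = 0.0065). The third lipin gene, LPIN3, had 1 read in a single sample and was not tested.

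Diacylglycerol acyltransferases complete triglyceride, and the more abundant of the pair was higher. DGAT2 measured 8.15, 8.63 and 7.68 FPKM in sh-NC and 9.39, 9.97 and 9.22 FPKM in sh-TRAF2. The groups did not overlap, and the log2 fold change was 0.22 (standard error 0.060, limma adjusted p = 0.017). The call ended when sh-NC replicate 3 was left out (log2 fold change 0.18, limma adjusted p = 0.057) and when sh-TRAF2 replicate 2 was (0.19, limma adjusted p = 0.061). DGAT1, which overlaps HSF1 by 137 bases in RefSeq, measured 2.33 to 2.48 FPKM in sh-NC and 2.34 to 2.38 FPKM in sh-TRAF2 and did not pass (log2 fold change -0.03, 95% interval -0.20 to 0.14, limma adjusted p = 0.74). DGAT2 made up 77.2% ± 0.935 of the summed FPKM of the pair in sh-NC and 80.2% ± 0.693 in sh-TRAF2 (SD, n = 3 each).

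**Figure D2:**
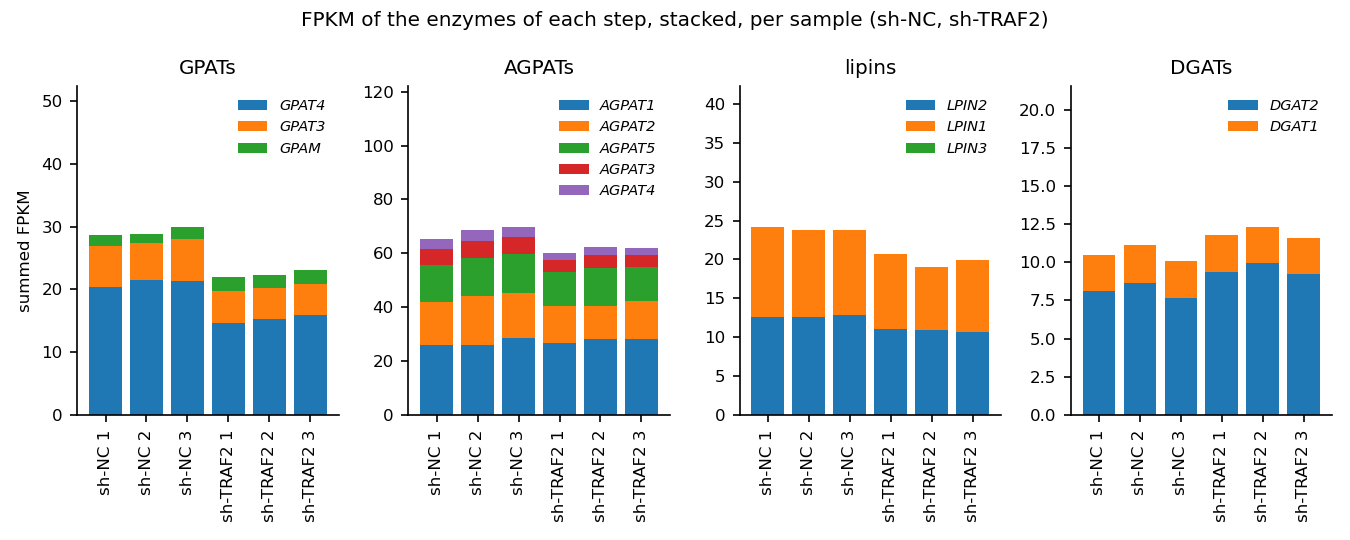
FPKM of the listed enzymes of each synthesis step, stacked, in each of the 3 sh-NC and 3 sh-TRAF2 samples. The panels have their own axes, all starting at 0. The sums of the GPAT, AGPAT and lipin genes are lower in every sh-TRAF2 sample than in every sh-NC sample, and that of the DGAT genes is higher.

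FITM2 showed the largest change of the 24 tested genes. It encodes a protein of the endoplasmic reticulum needed for triglyceride to partition into droplets. Its values were 5.33, 5.56 and 5.10 FPKM in sh-NC and 2.96, 3.18 and 3.13 FPKM in sh-TRAF2. The groups were wide apart, with a mean 42.0% lower in sh-TRAF2 (log2 fold change -0.77, standard error 0.065, limma adjusted p = 6.3e-05), and with each sample left out in turn the log2 fold change stayed between -0.80 and -0.74.

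Of the 9 lower genes, 1, FITM2, holds in its longest 3′UTR the heptamer ATTCCAC of a TRAF2 hairpin target, and the sequences are shown for that reason. The capitals mark it, bases 10 to 16 of the 21-base target of sh-TRAF2#1 as designed by the study. Whether the sequenced line carried this hairpin is not given in the sources. The other lines are stretches of 3′UTR from GENCODE release 29 (GRCh38), in FITM2 at chr20:44305051-44305075 on the minus strand and in RAB18 at chr10:27538497-27538521 on the plus strand, where the same letters lie.
sh-TRAF2#1 target: cccttgcagATTCCACgccat
FITM2 3′UTR: cagtcttaaATTCCACctcatgggg
RAB18 3′UTR: aagagcatgATTCCACagcttttct

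These letters were picked because they stood out in an earlier scan of these same data, so their presence is a description and no independent support. They lie in the longest 3′UTR of 10.7% of 10822 tested genes with a known 3′UTR, namely 17.7% of those lower, 5.95% of those higher and 9.88% of those that did not pass. The median length of that 3′UTR differed in the same order, at 1819 bases in the lower, 1088 in the higher and 1422 in the other genes, and its part in these shares was not tested. Among the 24 tested pathway genes, 2 carried them (8.33%), FITM2 and RAB18. RAB18, a small GTPase of the droplet surface, had 22.2 to 24.1 FPKM in sh-NC and 21.6 to 23.6 FPKM in sh-TRAF2 and did not pass (log2 fold change -0.02, 95% interval -0.14 to 0.10, limma adjusted p = 0.77). GPAT4, AGPAT3 and LDAH, which fell, did not carry them. Whether the hairpin acts on FITM2 through this stretch was not tested.

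PLIN3 was the one perilipin of the 3 with enough reads to be tested. It coats nascent droplets and measured 21.2, 23.3 and 20.2 FPKM in sh-NC and 28.1, 31.3 and 26.9 FPKM in sh-TRAF2. All sh-TRAF2 samples lay above all sh-NC samples (log2 fold change 0.41, standard error 0.070, limma adjusted p = 0.0019), a mean 33.3% higher. PLIN2, the perilipin found on droplets of most cell types, had 2, 1 and 0 reads in sh-NC and 2, 3 and 3 reads in sh-TRAF2, and PLIN5 had 0 or 1 read in each sample. In the deposited values PLIN3 held 99.9% of the FPKM of the 3 perilipins in both groups. The annotation used for counting is not given in the sources used here, so few counted PLIN2 reads and little PLIN2 mRNA cannot be told apart, and the share holds for the reads as counted.

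AUP1, an abundant droplet protein that also takes part in the degradation of proteins from the endoplasmic reticulum, had the highest level of the pathway. It measured 104, 111 and 104 FPKM in sh-NC and 122, 126 and 122 FPKM in sh-TRAF2, with no overlap (log2 fold change 0.21, standard error 0.038, limma adjusted p = 0.0025). After quantile normalization the log2 fold change was 0.13 (limma adjusted p = 0.016). AUP1 lies head to head with HTRA2, a mitochondrial protease gene, and the genes overlap by 302 bases in RefSeq (GRCh38.p14). HTRA2 was higher too, at 8.69, 9.01 and 7.83 FPKM in sh-NC and 12.2, 15.0 and 12.3 FPKM in sh-TRAF2 (log2 fold change 0.62, standard error 0.090, limma adjusted p = 0.00085). The use of strand in counting is not given in the sources used here, so reads in the overlap cannot be assigned to either gene with certainty.

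The stretch where both genes begin is shown because both were higher. It is the AUP1 promoter window of RefSeq (GRCh38.p14), chr2:74529657-74529956 on the minus strand, and 274 of its 300 bases also belong to a promoter window of HTRA2. The capitals mark GGGCGG, the GC box, searched on both strands, which overlaps no E-box here.
AUP1 promoter: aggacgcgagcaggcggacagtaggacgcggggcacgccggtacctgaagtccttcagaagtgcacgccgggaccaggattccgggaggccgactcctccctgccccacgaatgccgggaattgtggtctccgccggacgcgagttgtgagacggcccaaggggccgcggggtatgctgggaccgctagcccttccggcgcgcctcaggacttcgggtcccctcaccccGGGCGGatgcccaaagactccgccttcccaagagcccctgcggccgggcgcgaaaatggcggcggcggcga

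A GC box lies in 45.0% of the 35116 promoter windows of that length, and in a window of 13 of the 18 tested pathway genes that have an entry. An E-box spelled CACGTG, the letters bound by MLX with its partners, lies in 7.26% of all windows and in a window of 1 of those 18, LPIN2. The percentages count windows of all genes, whereas the pathway numbers count tested genes with any such window, so the measures are unlike. These matches are descriptions of the letters only.

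LDAH, a hydrolase bound to droplets, fell. It measured 5.69, 6.12 and 5.51 FPKM in sh-NC and 4.15, 4.57 and 4.24 FPKM in sh-TRAF2, with no overlap (log2 fold change -0.41, standard error 0.067, limma adjusted p = 0.0016). HSD17B11, a droplet-bound steroid dehydrogenase, had 5.69 to 5.97 FPKM in sh-NC and 5.14 to 5.76 FPKM in sh-TRAF2 and did not pass (log2 fold change -0.07, limma adjusted p = 0.37). VPS13C, a lipid transfer protein at contact sites with droplets, did not pass (log2 fold change -0.18, limma adjusted p = 0.077). It passed under 3 alternatives, namely limma-voom on the reads recovered from the FPKM (-0.18, adjusted p = 0.027), sh-TRAF2 replicate 3 left out (-0.23, limma adjusted p = 0.047) and the replicate number as a block (-0.18, limma adjusted p = 0.036).

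**Figure D3:**
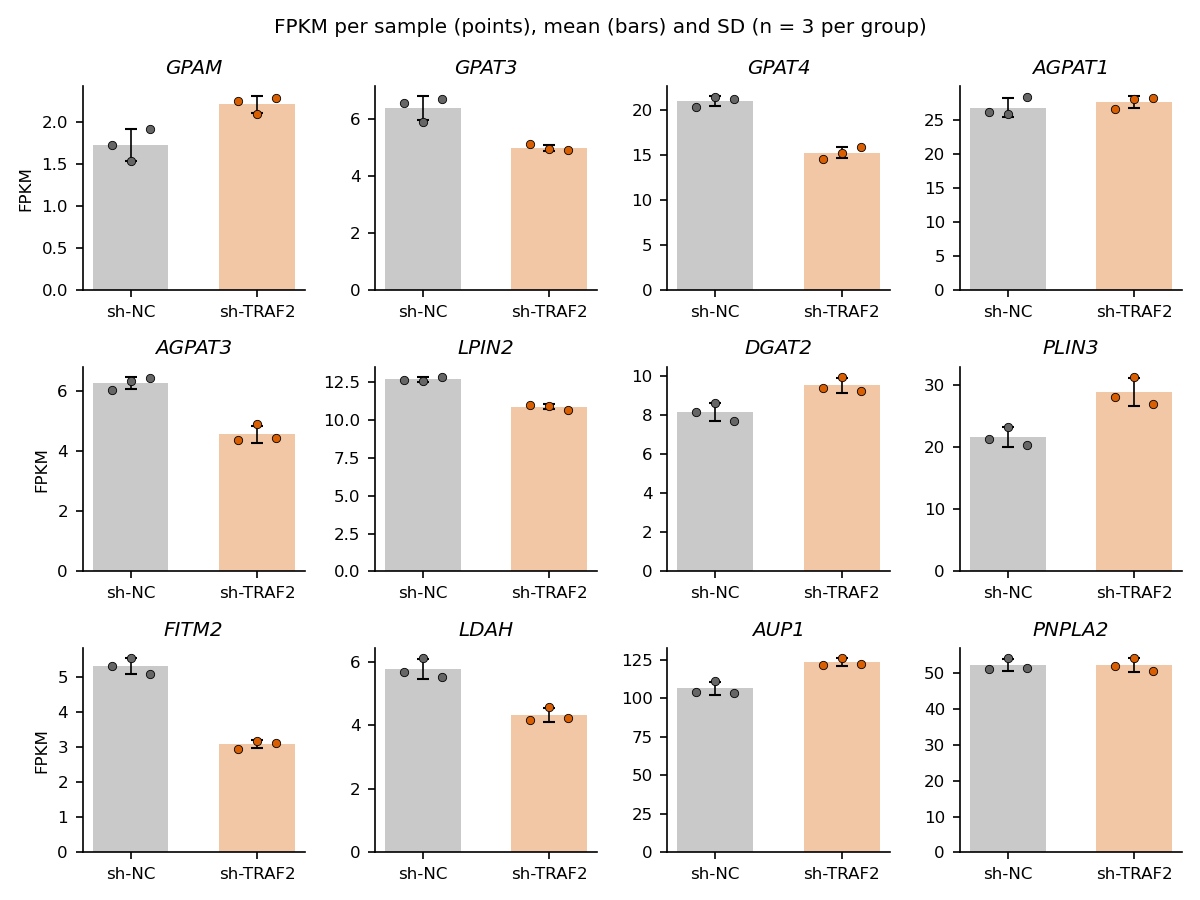
FPKM of 12 pathway genes per sample (points), with group means (bars from 0) and SD (error bars, n = 3 per group). The groups separate in every panel except those of AGPAT1 and PNPLA2, and the separation relative to the level is widest for FITM2.

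The genes of droplet fusion and formation other than FITM2 were near the floor. CIDEB, of a family that moves lipid between droplets, had 72, 33 and 14 reads in sh-NC and 59, 75 and 56 reads in sh-TRAF2, and NOP9 and LTB4R2 overlap it in RefSeq. CIDEC had 0 or 1 read in each sample. BSCL2, which encodes seipin, the scaffold at the neck of a forming droplet, had 13, 10 and 8 reads in sh-NC and 4, 11 and 9 reads in sh-TRAF2. A read-through gene with HNRNPUL2 spans BSCL2 fully in RefSeq and was not analysed here, so reads of seipin transcripts counted to neither gene or to another one are not seen in these values.

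None of the lipases and their regulators passed. PNPLA2, the first lipase of triglyceride breakdown and by far the most abundant, measured 51.2, 54.3 and 51.6 FPKM in sh-NC and 51.9, 54.3 and 50.6 FPKM in sh-TRAF2. The groups covered the same range, and the 95% interval of the log2 fold change ran from -0.10 to 0.09 around -0.0016. Its relative PNPLA3 had 0 to 2 reads in each sample. LIPE, the hormone-sensitive lipase that acts next and that LIPE-AS1 spans fully in RefSeq, had 1.11 to 1.39 FPKM in sh-NC and 1.16 to 1.35 FPKM in sh-TRAF2 (log2 fold change 0.06, 95% interval -0.23 to 0.34, limma adjusted p = 0.74).

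MGLL, which releases the last fatty acid from the glycerol, measured 1.98, 2.08 and 1.63 FPKM in sh-NC and 1.62, 1.60 and 1.45 FPKM in sh-TRAF2. The groups did not overlap, but the margin was small and the test was not passed (log2 fold change -0.26, limma adjusted p = 0.092). Without sh-NC replicate 3 it was passed (-0.36, limma adjusted p = 0.034). ABHD5, the activator of PNPLA2, overlaps ANO10 by 725 bases in RefSeq and had 9.69 to 10.4 FPKM in sh-NC and 8.83 to 9.42 FPKM in sh-TRAF2, without overlap and without passing (log2 fold change -0.14, limma adjusted p = 0.061). After rescaling each sample to a common total it passed (-0.15, limma adjusted p = 0.044).

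HILPDA, an inhibitor of PNPLA2 that is induced by low oxygen, turned on a single control sample. It measured 7.35, 6.70 and 16.3 FPKM in sh-NC and 9.96, 11.8 and 10.3 FPKM in sh-TRAF2, so that sh-NC replicate 3 lay above all other samples and sh-NC replicates 1 and 2 below them. With all samples the log2 fold change was 0.20 (standard error 0.29, limma adjusted p = 0.61). It was 0.60 without sh-NC replicate 3 (limma adjusted p = 0.0016) and -0.04 without sh-NC replicate 2 (limma adjusted p = 0.92). Other genes known to respond to low oxygen, chosen after their values were seen, were highest in the same sample. NDRG1 measured 21.4, 10.5 and 57.1 FPKM in sh-NC against 23.2 to 27.7 FPKM in sh-TRAF2. CA9 measured 12.1, 4.10 and 26.6 FPKM in sh-NC against 7.71 to 10.4 FPKM in sh-TRAF2. Their part in the HILPDA values was not tested. The remaining PNPLA2 inhibitor, G0S2, had 1 read in a single sample.

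CD36, which takes up long-chain fatty acids, had 3, 4 and 5 reads in sh-NC and 0, 3 and 1 reads in sh-TRAF2. It was not tested, and with CD36 the genes left untested by the filter were LPIN3, PLIN2, PLIN5, CIDEB, CIDEC, BSCL2, PNPLA3 and G0S2. Apart from CIDEB and BSCL2, none of these had more than 5 reads in any sample.

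**Figure D4:**
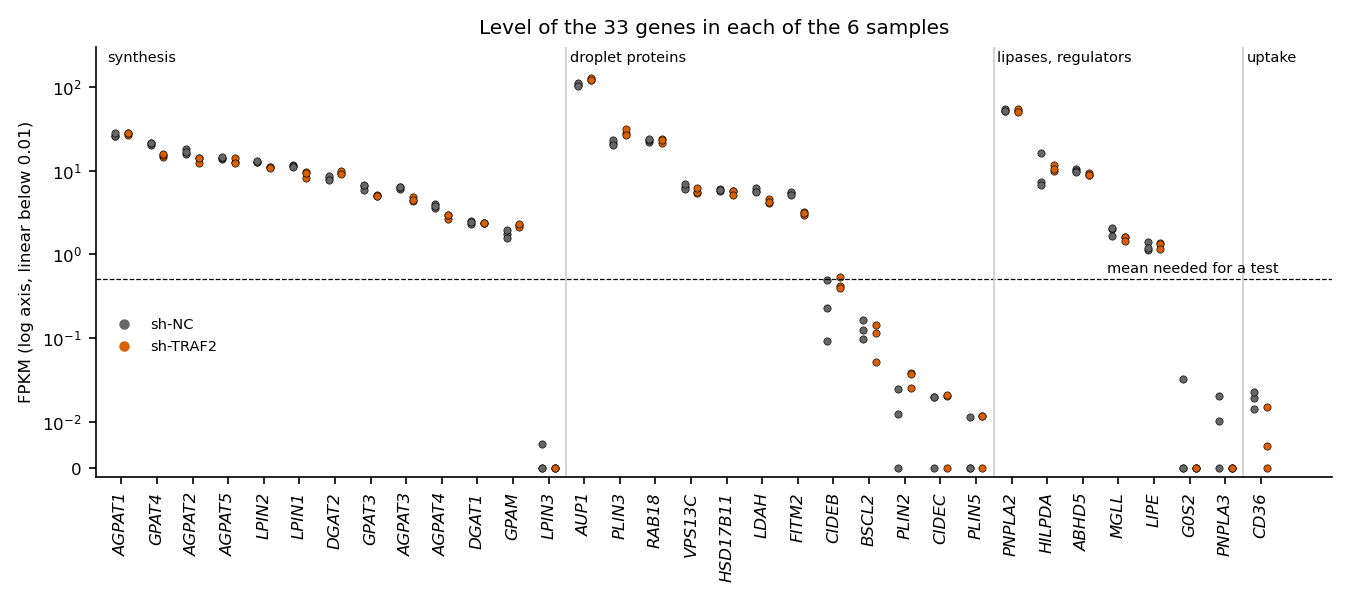
FPKM of all 33 genes in each of the 6 samples, on a log axis that is linear below 0.01, ordered by mean within each role; the dashed line marks the mean of 0.5 FPKM needed for a test. The 24 tested genes lie above 1 FPKM, from LIPE to AUP1, and the 9 others have means below the line.

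A further 97 genes next to this pathway were read with the same test. Of 76 tested, 10 were higher, 21 lower and 45 did not pass, with a median log2 fold change of -0.11. These are 13.2% higher and 27.6% lower, against 23.7% and 20.9% of all genes tested. No gene among them moved by more than 1 on the log2 scale. The number higher depended on the samples, being 5 with sh-NC replicate 1 or sh-TRAF2 replicate 2 left out, and 6 with replicate 3 of either group left out. The genes described in each list are those among the 3 with the smallest adjusted p, except CTDNEP1. TMEM68, RAB8A and ARF1, called higher, and SREBF2, CDS1 and SPAST, called lower, are also named, because their calls were not stable. Without sh-NC replicate 1 the limma adjusted p was 0.115 for SREBF2, a regulator, and 0.075 for SPAST, a droplet protein. For CDS1, of the phospholipid branch, it was 0.086 without sh-NC replicate 3.

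In the list of glycerol phosphate supply and sterol ester synthesis, 2 genes were higher and 2 lower of 5 tested. The list also holds TMEM68, which belongs to neither of these functions. The shares were 40% and 40%, against 23.7% and 20.9% of all genes tested. GPD2, the mitochondrial glycerol phosphate dehydrogenase, fell from 13.5 ± 0.783 to 9.42 ± 0.453 FPKM (log2 fold change -0.52, limma adjusted p = 0.00029), and GPD1L, related to the cytosolic enzyme, from 10.6 ± 0.878 to 7.75 ± 0.705 FPKM (-0.45, limma adjusted p = 0.0028; SD, n = 3 each). SOAT1, which esterifies cholesterol for storage, was higher (log2 fold change 0.15, limma adjusted p = 0.026), but not without sh-NC replicate 1, sh-NC replicate 3, sh-TRAF2 replicate 1 or sh-TRAF2 replicate 3 (limma adjusted p of 0.071, 0.079, 0.073 and 0.093). TMEM68, the other gene higher, did not pass with the replicate number as a block (log2 fold change 0.30, limma adjusted p = 0.058). Nor did it pass without replicate 1 or replicate 2 of either group (limma adjusted p of 0.057 to 0.10).

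Among the further droplet proteins, 2 were higher and 6 lower of 13 tested, 15.4% and 46.2% against 23.7% and 20.9% of all genes tested. Those higher, RAB8A and ARF1, did not pass after quantile normalization (limma adjusted p = 0.052 and 0.35). FAF2, which recruits the p97 ATPase to droplets, showed the largest change, with 43.6, 44.0 and 44.0 FPKM in sh-NC and 25.8, 28.6 and 25.0 FPKM in sh-TRAF2 (log2 fold change -0.73, standard error 0.053, limma adjusted p = 3.2e-05). SPART, or spartin, fell from 26.7 ± 0.0967 to 20.3 ± 0.502 FPKM (SD, n = 3 each; log2 fold change -0.40, limma adjusted p = 0.00013). LDAF1, the partner of seipin in droplet formation, fell by 0.25 on the log2 scale (limma adjusted p = 0.0068).

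The phospholipid branch, which uses the same phosphatidic acid and diacylglycerol, had 0 genes higher and 5 lower of 15 tested. That is 0% and 33.3%, against 23.7% and 20.9% of all genes tested. PEMT, which methylates phosphatidylethanolamine to phosphatidylcholine, fell from 9.88 ± 0.634 to 6.65 ± 0.183 FPKM (log2 fold change -0.56, limma adjusted p = 0.00019). PCYT1A, the rate-limiting enzyme of phosphatidylcholine synthesis, fell from 28.5 ± 0.699 to 23.2 ± 0.831 FPKM (-0.30, limma adjusted p = 0.00092), and SELENOI, an ethanolamine phosphotransferase, from 10.4 ± 0.0824 to 8.49 ± 0.277 FPKM (-0.29, limma adjusted p = 0.0018; SD, n = 3 each).

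Further hydrolases had 3 genes higher and 0 lower of 12 tested, 25% and 0% against 23.7% and 20.9% of all genes tested. LPL, the lipoprotein lipase, measured 2.90, 2.27 and 3.74 FPKM in sh-NC and 4.65, 4.41 and 4.77 FPKM in sh-TRAF2, without overlap (log2 fold change 0.65, standard error 0.15, limma adjusted p = 0.0098). The diacylglycerol lipases DAGLA and DAGLB were higher by 0.35 and 0.21 on the log2 scale (limma adjusted p = 0.022 and 0.023). DAGLB did not pass when any of 5 samples was left out, with sh-NC replicate 2 the exception, and DAGLA not without sh-NC replicate 3, sh-TRAF2 replicate 2 or sh-TRAF2 replicate 3 (limma adjusted p of 0.054 to 0.077 over both genes).

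Of the genes of fatty acid binding and lipoprotein uptake, VLDLR, a lipoprotein receptor, fell by 0.18 on the log2 scale (limma adjusted p = 0.014). CAV1, the caveolar coat protein, did not pass (-0.12, limma adjusted p = 0.085). It passed under 3 alternatives, namely quantile normalization (-0.19, limma adjusted p = 0.019), sh-NC replicate 2 left out (-0.17, limma adjusted p = 0.017) and the replicate number as a block (-0.12, limma adjusted p = 0.015).

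Regulators of the pathway had 2 genes higher and 7 lower of 22 tested, 9.09% and 31.8% against 23.7% and 20.9% of all genes tested. CNEP1R1, the regulatory subunit of the phosphatase that activates lipins, showed the largest rise of all these genes, with 4.99, 4.93 and 6.06 FPKM in sh-NC and 10.7, 9.94 and 10.3 FPKM in sh-TRAF2 (log2 fold change 0.95, standard error 0.084, limma adjusted p = 7.6e-05). Its catalytic partner CTDNEP1, named here after its value was seen, had 79.3 ± 2.74 FPKM in sh-NC and 81.1 ± 1.42 FPKM in sh-TRAF2 and did not pass (log2 fold change 0.03, limma adjusted p = 0.51). MLX, the partner of glucose-sensing transcription factors, rose from 18.0 ± 2.39 to 29.3 ± 1.95 FPKM (0.70, limma adjusted p = 0.00047), and PPARD, a nuclear receptor for fatty acids, fell from 15.0 ± 0.687 to 12.3 ± 0.589 FPKM (-0.28, limma adjusted p = 0.0038; SD, n = 3 each).

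**Figure D5:**
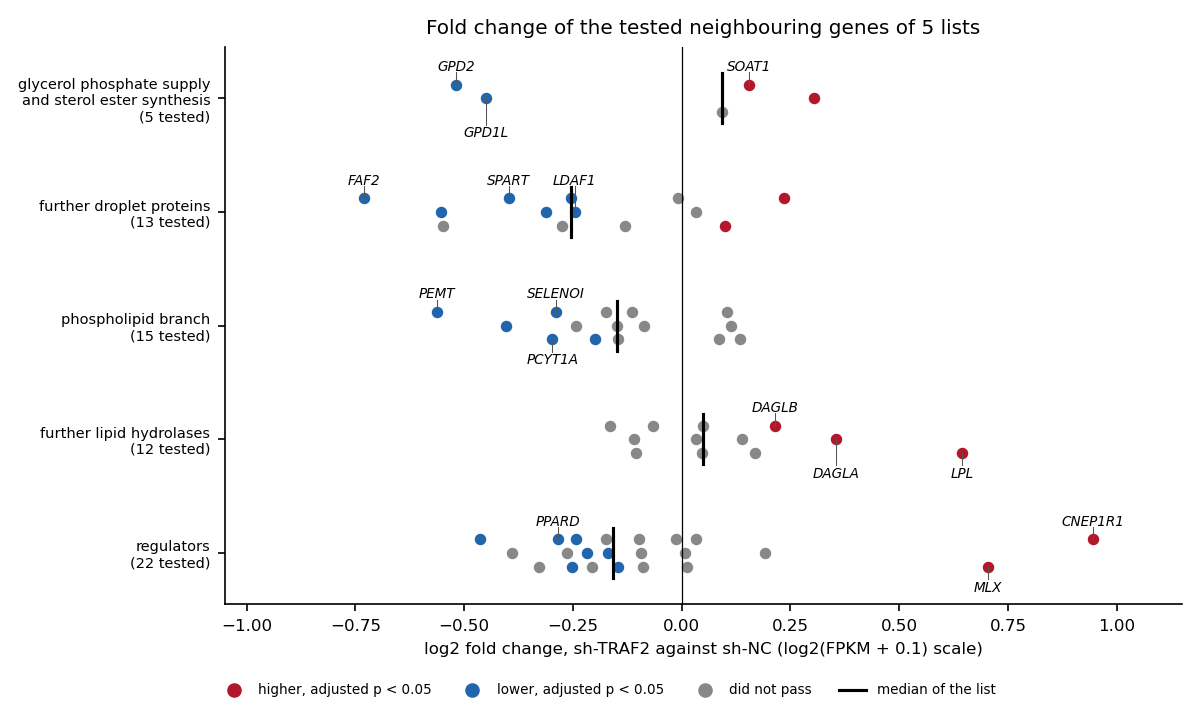
Log2 fold change, sh-TRAF2 against sh-NC, of the tested neighbouring genes in 5 lists, without those of fatty acid binding and lipoprotein uptake; each point is a gene, the vertical bar is the median of its list, and the 3 genes of each list with the smallest adjusted p are named. FAF2 at -0.73 and CNEP1R1 at 0.95 lie farthest to either side, and no gene of the phospholipid branch passes on the right.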

How the data were processed

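RNA from 3 sh-NC and 3 sh-TRAF2 samples of U251 cells was sequenced, and groups and replicate numbers were taken from the sample titles. The authors deposited FPKM per gene and sample. The submitters' processing notes name HISAT2, HTSeq, R 3.2.0 and DESeq2, with no genome build, annotation or strand setting. All FPKM were whole multiples of a step (tolerance 1e-06 of a read), so reads were recovered for 23002 genes; for 2643 with reads in 1 sample the number is the lowest possible.

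Values were taken as log2(FPKM + 0.1), a scale on which changes of low genes are compressed. Genes with a mean of at least 0.5 FPKM (11870) were compared with limma 3.58.1 in R 4.3.3 (lmFit, eBayes with a trend, two-sided, Benjamini-Hochberg over all 11870). Called genes have an adjusted p under 0.05. The exact permutation test over the 20 assignments cannot go below p = 0.1. The design text calls the samples biological replicates of stable lines, so p-values measure the spread between them only. The fit was also run on simulated reads drawn with a common setting of spread for all genes. That run therefore does not speak to genes whose samples spread more widely.

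The 33 genes and all lists were chosen with earlier results of these data known. Every one of the 33 is accounted for. By rule, values in every sample are given for those passing with a log2 fold change of at least 0.4 in size and for the most abundant of each list, others by range or as the nearest paralogue, and from each neighbouring list the 3 genes with the smallest adjusted p are named, apart from 1 that is not reported here. MOGAT3, PLIN4, CIDEA, PNPLA4 and FABP5, and the markers ADIPOQ, LEP, APOA2, TTR, AIF1 and CD3E, were not analysed here. Hairpin targets came from the study's supplement, other sequences from GENCODE 29 and RefSeq, where all 33 genes matched by gene number and 25 had a promoter. Alternatives were pseudocounts of 1 and 0.01, no filter, a mean of at least 1 FPKM, a common total (TPM), quantile normalization, a replicate block, no trend, limma-voom on recovered reads (mean of at least 10), a log2 fold change above 1, and leaving out each sample. Python 3.11.15, pandas 2.3.3 and matplotlib 3.10.9 were used.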

Additional observations from a re-analysis of the deposited data

How the results depend on the processing

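Of 160 comparisons of 10 counts with their alternatives, 137 stayed within 1.5 times. With a log2 fold change above 1 also required, the counts of pathway genes higher and lower, and those of synthesis, droplet proteins and neighbouring genes, were all 0. Without a filter 1 synthesis gene was higher, and 5 neighbouring genes. With a common total (TPM) 1 lipase regulator, ABHD5, was lower. With each sample left out in turn, 3 to 4 pathway genes were higher and 9 to 10 lower. The synthesis counts were 1 higher in each case and 7 to 8 lower, the droplet protein counts 2 higher and 2 to 3 lower, and those of the lipases and regulators 0 to 1 higher and 0 to 1 lower. The neighbouring genes had 5 to 9 higher and 18 to 25 lower. The cause of these shifts was not tested.

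Of 645 comparisons for TRAF2 and 42 genes named by rule, 606 kept direction and call, 21 lost the call, 10 gained it and 8 turned sign. The 42 do not include TMEM68, RAB8A, ARF1, SREBF2, CDS1 and SPAST. The sign turned only for genes that had not passed. For AGPAT1 it turned after quantile normalization (-0.0011). Over the samples left out in turn it turned for RAB18 (-0.051 to 0.020), PNPLA2 (-0.029 to 0.025), LIPE (-0.010 to 0.14) and HILPDA (-0.039 to 0.60). Without a filter the limma adjusted p rose to 0.074 for GPAM, 0.066 for DAGLA and 0.052 for DAGLB. FITM2 ranged from -0.80 to -0.63 over all alternatives, GPAT4 from -0.49 to -0.43 and PLIN3 from 0.35 to 0.47.

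The titles give both groups the replicate numbers 1 to 3. Deviations of same-numbered samples correlated at -0.081, 0.072 and 0.073, and those of differently numbered samples at -0.14 to 0.067. With 3 samples a group, these values cannot settle whether the numbers pair the samples. With the replicate block, 4 pathway genes were higher and 10 lower, VPS13C being added (limma adjusted p = 0.036), 9 neighbouring genes were higher and 24 lower, CAV1 among the lower (limma adjusted p = 0.015), and TRAF2 was at -2.27.

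With 3 samples a group, small changes are hard to call. For genes with few counted reads, PLIN2 and CD36 among them, no difference was detectable. limma-voom on the recovered reads called 3022 genes higher and 2737 lower of 14130.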
